A study of Mus musculus with 16 samples.

Results

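The 6 genes described here, Mcu, Mcub, Mcur1, Micu2, Micu3 and Letm1, encode parts of the machinery that moves calcium and other cations across the inner mitochondrial membrane. They were taken by symbol from a table of 35682 genes, and each symbol matched 1 row. RNA was sequenced from adult ventricular myocytes, isolated by perfusion of the heart and plated for 1 hour, of 16 mice. The groups were 8 wild-type (WT) littermates and 8 B3AR-Tg mice, a line named for the beta-3 adrenergic receptor. Every mouse in both groups had undergone transverse aortic constriction (TAC), a narrowing of the aorta that loads the left ventricle, 9 weeks before collection, so no unloaded heart enters any comparison. The promoter behind the transgene, the age and the sex of the mice are not stated in the labels used here.

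In heart muscle, calcium released at each beat also enters the mitochondrial matrix through the uniporter, where it speeds the dehydrogenases that feed the respiratory chain. MCU forms the pore, and MCUB is a related subunit that lowers the current when it enters the pore. MICU2 and MICU3 sense calcium on the outer side and set the threshold at which the pore opens, the small subunit EMRE (gene Smdt1) links them to it, and MCUR1 helps the complex assemble. LETM1 is an inner membrane cation exchanger described for potassium and for calcium, and NCLX (gene Slc8b1) carries calcium back out in exchange for sodium.

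Libraries held 5985335 to 14365864 counts, and no within-genotype pair of libraries agreed within sampling noise (chi-square per gene 6.21 to 57.4 over 56 pairs). The 7 cardiomyocyte markers, among them Myh6 (the alpha myosin heavy chain), summed to 62212 to 102809 CPM per library, so the markers of the labelled cell type were abundant throughout. CPM here is the count relative to the library total after TMM scaling, which adjusts for library composition. Markers of other cells were low, and several lists were unequal between genotypes. The 7 fibroblast markers summed to 35.9 to 105 CPM in WT and 10.8 to 46.5 CPM in B3AR-Tg, and the 7 endothelial markers to 78.7 to 126 and 36.9 to 150 CPM. The leukocyte marker Ptprc had at most 9 counts in any library. The 7 leukocyte and macrophage markers summed to 4.39 to 14.6 CPM in WT and 0.795 to 6.43 CPM in B3AR-Tg. The 7 mural and smooth muscle markers summed to 87.7 to 163 and 47.7 to 143 CPM. Of the fibroblast list, and named after their values were seen, Tcf21 had at most 3 counts per library and Dcn 73 to 604. The gene Nppa, which encodes the load-responsive atrial natriuretic peptide, was at 563 ± 556 CPM (SD, n = 8) in WT and 35.4 ± 36.5 CPM (SD, n = 8) in B3AR-Tg.

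None of the 6 genes passed the test between genotypes. Of the 10945 genes tested by edgeR's quasi-likelihood test, 4.91% had a Benjamini-Hochberg adjusted p under 0.05, with 2.03% higher and 2.88% lower in B3AR-Tg. The higher genes made up 41.3% of those that passed, and 67.7% with scaling by library size only. Of the 6 members, 5 had enough counts to be tested and 0 passed by edgeR, by DESeq2 or by limma voom. At an unadjusted p under 0.05 edgeR gave 1 of the 5, Micu2, which was lower, against 19.3% of all tested genes in either direction and 10.6% lower. The groups overlapped for each of the 5, as they did for all but 0.448% of tested genes.

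Mcu, the pore gene, was at the same mean level in both genotypes. WT replicates 1 to 8 were at 12.5, 11.7, 14.4, 11.1, 11.4, 10.3, 15.4 and 11.7 CPM. B3AR-Tg replicates 1 to 8 were at 14.6, 11.04, 13.99, 11.5, 10.01, 13.0, 13.3 and 10.9 CPM. Both groups spanned nearly the same range, and 4 of the 8 B3AR-Tg animals lay above the WT median. The means were 12.3 ± 1.72 CPM (SD, n = 8) and 12.3 ± 1.65 CPM (SD, n = 8), and the log2 fold change was 0.00 ± 0.11 (SE). The edgeR adjusted p was 0.990, and the 95% interval of the log2 fold change ran from -0.22 to 0.23.

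Mcub, the inhibitory pore subunit, was at or under the floor of detection in every library. The floor was taken as 3 counts, which corresponded to 0.201 to 0.487 CPM. WT replicate 2 held 2 counts and B3AR-Tg replicate 1 held 1 count, and the other 14 libraries held 0. Mcub therefore did not enter the test, and a genotype difference was not detectable at this depth. With Mcub set to the floor of 3 counts in each library, Mcu per kilobase of transcript was 10.7-fold higher in the library with the fewest Mcu counts. It was 33.3-fold higher in the library with the most, B3AR-Tg replicate 1, which held 1 Mcub count. These ratios follow from the floor taken and do not include the counting error of Mcu.

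Mcur1, the assembly factor, also had nearly equal means. WT replicates 1 to 8 were at 62.6, 61.9, 46.1, 53.4, 59.1, 59.7, 55.8 and 55.5 CPM. B3AR-Tg replicates 1 to 8 were at 61.7, 61.4, 59.6, 48.4, 54.3, 63.0, 65.8 and 55.7 CPM. The lowest animal of each genotype, WT replicate 3 and B3AR-Tg replicate 4, stood below the others. The log2 fold change was 0.05 with a 95% interval from -0.11 to 0.21 (edgeR adjusted p = 0.775). This was the steadiest member across animals in WT, with a coefficient of variation of 9.46% there and 9.55% in B3AR-Tg.

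**Figure D1:**
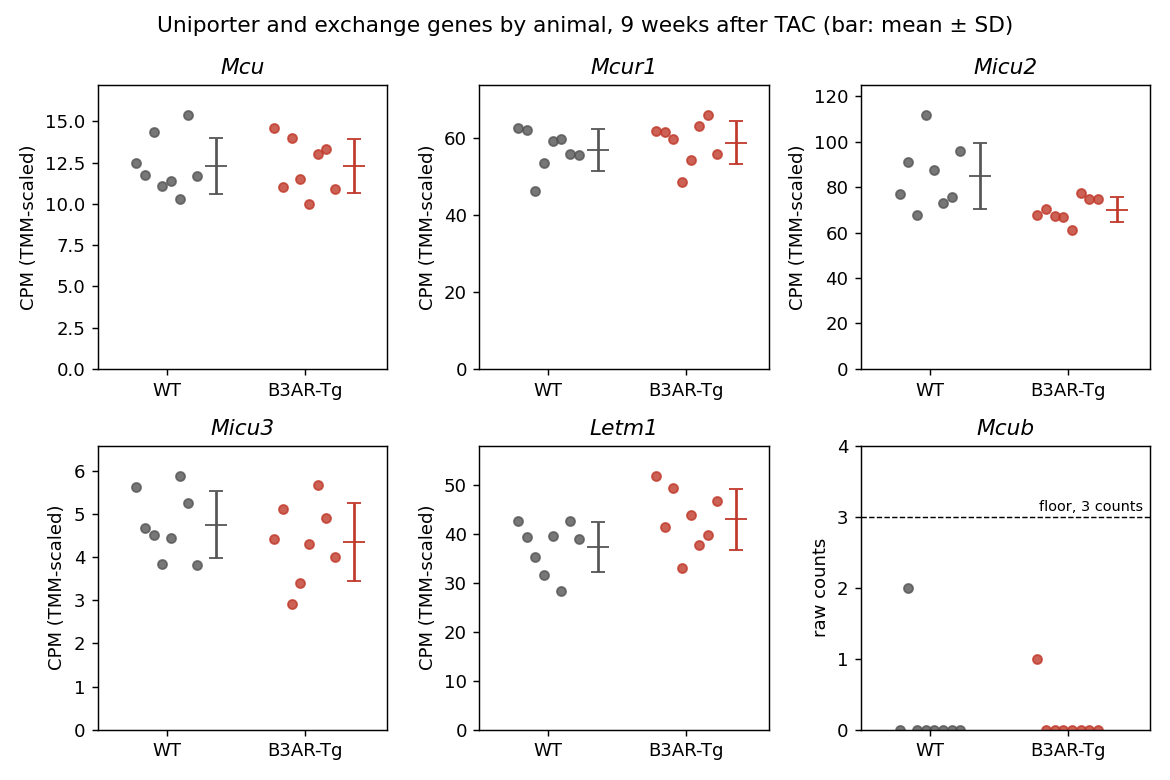
Each point is 1 animal, with WT in grey and B3AR-Tg in red, and the bars give the mean ± SD over 8 animals. The vertical axes are TMM-scaled CPM from 0, except for Mcub, where raw counts are shown against the floor of 3; the 8 B3AR-Tg animals lie below the WT median of 82.3 CPM for Micu2, and the groups overlap in all panels.

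Micu2, the gatekeeper gene with the highest level among the members, was lower on average in B3AR-Tg but did not pass over all genes. WT replicates 1 to 8 were at 76.9, 91.2, 67.7, 111.6, 87.7, 73.0, 75.8 and 95.7 CPM. B3AR-Tg replicates 1 to 8 were at 67.5, 70.2, 67.2, 66.9, 61.1, 77.4, 75.0 and 75.0 CPM. All 8 B3AR-Tg animals lay below the WT median, while 4 WT animals (replicates 1, 3, 6 and 7) lay within the B3AR-Tg range of 61.1 to 77.4 CPM. The means were 84.9 ± 14.4 CPM (SD, n = 8) and 70.0 ± 5.44 CPM (SD, n = 8). The log2 fold change was -0.28 ± 0.09 (SE), with a 95% interval from -0.47 to -0.08 and an edgeR adjusted p of 0.0908. By its p, Micu2 ranked 853 among the tested genes.

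The Micu2 value lay close to the threshold and crossed it under some settings. Without WT replicate 3, the lowest WT animal, the adjusted p was 0.0414, and with each library thinned to the total of the smallest it was 0.0434 (edgeR in both). The thinning was a single random draw, which also moved the log2 fold change of Mcu from 0.005 to -0.086. Without WT replicate 4, the highest, the edgeR adjusted p of Micu2 was 0.198. Over 28 alternatives the log2 fold change kept its sign and ran from -0.34 to -0.13, with edgeR, DESeq2 or voom adjusted p from 0.0414 to 0.738. The smallest difference, -0.13 (edgeR adjusted p = 0.738), came from the fit with the fibroblast and endothelial marker level as a covariate. That level itself differed between the groups, at -0.10 to 0.97 (mean centred log2 CPM) in WT and -1.39 to 0.30 in B3AR-Tg. In cells taken in bulk, a smaller share of cells that express a gene and less of its RNA per cell cannot be told apart.

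Micu3, a further gatekeeper, was the lowest of the tested members. Its levels were 3.83 to 5.88 CPM in WT, with a median of 4.59, and 2.92 to 5.67 CPM in B3AR-Tg, with a median of 4.37. Only 21 to 66 counts per library stood behind it. Counting alone gives a coefficient of variation of 14.9% at its mean count, close to the 16.2% seen over WT animals. Over B3AR-Tg animals the coefficient was higher, at 20.7%. The log2 fold change was -0.11 with a 95% interval from -0.44 to 0.21 (edgeR adjusted p = 0.735).

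Letm1, the exchanger, had a higher mean in B3AR-Tg that did not pass. WT replicates 1 to 8 were at 42.7, 39.3, 35.4, 31.7, 39.6, 28.4, 42.6 and 38.9 CPM. B3AR-Tg replicates 1 to 8 were at 51.8, 41.3, 49.5, 33.1, 43.9, 37.8, 39.8 and 46.8 CPM. In B3AR-Tg, 4 animals (replicates 1, 3, 5 and 8) were above every WT animal, and replicate 4 was in the lower part of the WT range. The log2 fold change was 0.21 ± 0.10 (SE), with a 95% interval from -0.0035 to 0.42 and an edgeR adjusted p of 0.267. It kept its sign in 28 of 28 alternatives and its adjusted p was never under 0.155.

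The balance between gatekeepers and pore was examined as the log2 ratio of 2 genes within an animal, in which transcript length cancels between genotypes. The ratio of Micu2 to Mcu was 2.22 to 3.31 in WT and 2.20 to 2.76 in B3AR-Tg. The groups overlapped, 8 of 8 B3AR-Tg animals were below the WT median, and B3AR-Tg replicate 1 was just under the lowest WT animal. The difference of means was -0.27, and it did not pass (exact permutation p = 0.0934, adjusted p = 0.187 over 2 ratios, two-sided). For Micu3 to Mcu the difference was -0.14 (exact permutation p = 0.424, adjusted p = 0.424). The ratio of Mcub to Mcu was not formed because Mcub was under the floor.

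Levels of different genes were compared per kilobase of the longest protein-coding transcript. The order of the 6 members was the same in both genotypes. In WT, Micu2 stood at 36.5 ± 6.20 CPM per kilobase, Mcur1 at 13.1 ± 1.24, Letm1 at 7.08 ± 0.972, Mcu at 4.28 ± 0.599 and Micu3 at 2.15 ± 0.348 (SD, n = 8 each), with Mcub under the floor. In B3AR-Tg the same 5 values in CPM per kilobase were 30.1, 13.5, 8.16, 4.28 and 1.96. On this scale the ranges of neighbours among these 5 genes did not meet in either genotype, although Letm1 (lowest WT animal 5.39) and Mcu (highest 5.35) came close. That separation depends on the length used. Per kilobase of all coding-transcript exons merged, Letm1 was at 5.03 ± 0.690 and Mcu at 3.83 ± 0.537 in WT (SD, n = 8), with the order of the means unchanged. Per kilobase of the longest transcript, Micu2 was 8.52 times the level of Mcu in WT and 7.02 times in B3AR-Tg.

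Other genes of the complex were set on the scale of the longest transcript. Smdt1, which encodes EMRE, stood above all members at 51.8 ± 6.43 CPM per kilobase in WT (SD, n = 8). Its range met that of Micu2 in WT, although on this scale it was the higher of the 2 in 8 of 8 WT animals. Per kilobase of merged exons the WT means were closer, 38.1 ± 4.73 for Smdt1 and 36.5 ± 6.20 for Micu2 (SD, n = 8). Slc8b1, the sodium-calcium exchanger, was at 0.319 ± 0.165 in WT, where it rested on 4 to 14 counts per library. In B3AR-Tg it rested on 1 to 21 counts.

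**Figure D2:**
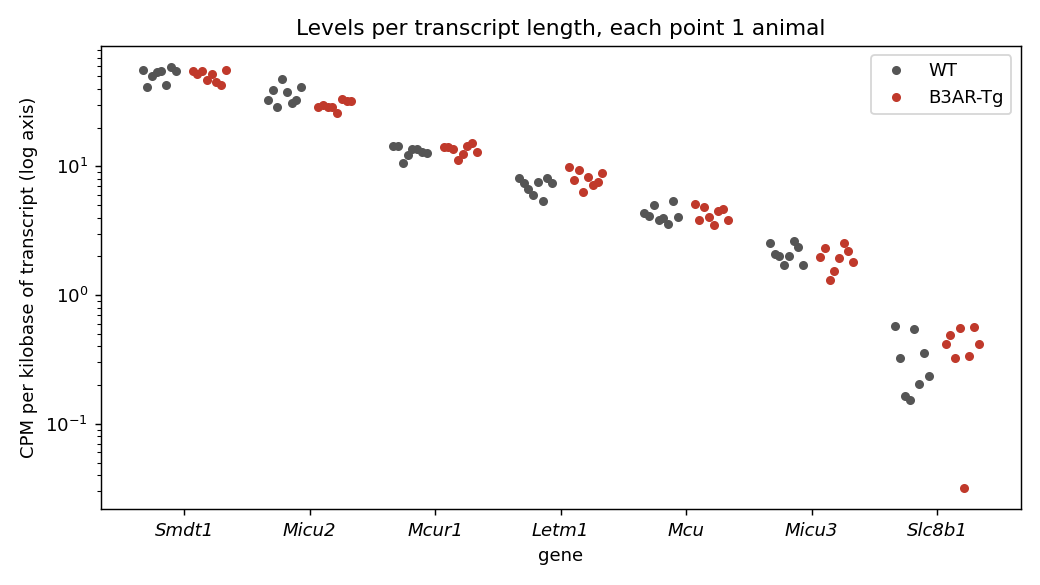
Each point is 1 animal (WT grey, B3AR-Tg red), and the logarithmic vertical axis gives CPM per kilobase of the longest protein-coding transcript. Genes run from Smdt1 and Micu2 on the left to Slc8b1 on the right, Mcub is left out because it was under the floor, and the order of the means is the same in both genotypes.

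The remaining genes around mitochondrial calcium were followed in 6 lists of 46 genes, of which 44 had enough counts to be tested. Of these, 1 was higher and 1 lower at an adjusted p under 0.05, and 8 had an unadjusted p under 0.05, shares no larger than the 4.91% and 19.3% over all tested genes. The median log2 fold change of the 44 was 0.09, beside 0.01 over all tested genes. Slc25a12, which encodes the calcium-sensitive aspartate-glutamate carrier of the malate-aspartate shuttle, rose from 155 to 193 CPM (log2 fold change 0.32, edgeR adjusted p = 0.0228). Its WT animals were at 135 to 170 CPM, and 7 of 8 B3AR-Tg animals lay above all of them. Its adjusted p was 0.0532 without WT replicate 4, 0.0722 with a replicate block and 0.619 with the marker covariate.

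Bcl2, an inhibitor of cell death at the outer mitochondrial membrane, fell by 1.53 on the log2 scale (edgeR adjusted p = 0.00627). Its mean was 17.5 CPM in WT, with animals from 9.71 to 31.4, and 6.08 CPM in B3AR-Tg, with animals from 2.12 to 13.2. Only B3AR-Tg replicate 7, at 13.2 CPM, reached into the WT range, and the highest WT animals were replicates 4, 8 and 2, at 31.4, 24.9 and 21.8 CPM. With the marker covariate the change was -0.51 (edgeR adjusted p = 0.619), and the mean marker sums were lower in B3AR-Tg as well, at 27.8 against 70.4 CPM for fibroblasts and 75.2 against 109.7 CPM for endothelium. The endothelial sums overlapped, with B3AR-Tg replicate 4 the highest of all animals at 149.9 CPM. Whether the share of other cells or the load has a part in the Bcl2 difference was not tested.

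Among the 4 partners of the uniporter, 0 passed, and the log2 fold change of Smdt1 was -0.03 (edgeR adjusted p = 0.874). Among the 6 exchange and cation genes 0 passed, with Slc8b1 at 0.30 and an interval from -0.48 to 1.09. Among the 6 inner membrane proteases and prohibitins 0 passed. Of the 12 tested genes of the outer membrane and its contacts with the sarcoplasmic reticulum 0 passed, and Vdac1, the main outer membrane channel, had a log2 fold change of 0.19 (edgeR adjusted p = 0.122). DESeq2 gave Vdac1 an adjusted p of 0.0373, 1 of 2 among 28 alternatives under 0.05. Its edgeR adjusted p was 0.312 with the replicate block and 0.834 with the marker covariate. Of the 9 tested calcium-sensitive enzymes and carriers 8 had a positive value, beside 51.1% of all tested genes, with a median of 0.19, and 1 passed; the list as a whole was not tested. Of the 7 permeability transition genes 1 passed, and Ppif, which encodes cyclophilin D, was at 0.06 (edgeR adjusted p = 0.750). An edgeR unadjusted p under 0.05 was found for 0 partners, 1 exchange or cation gene (not Slc8b1) and 1 protease or prohibitin. It was found for 3 outer membrane and contact genes, 2 calcium-sensitive genes and 1 permeability transition gene. The share over all tested genes was 19.3%.

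**Figure D3:**
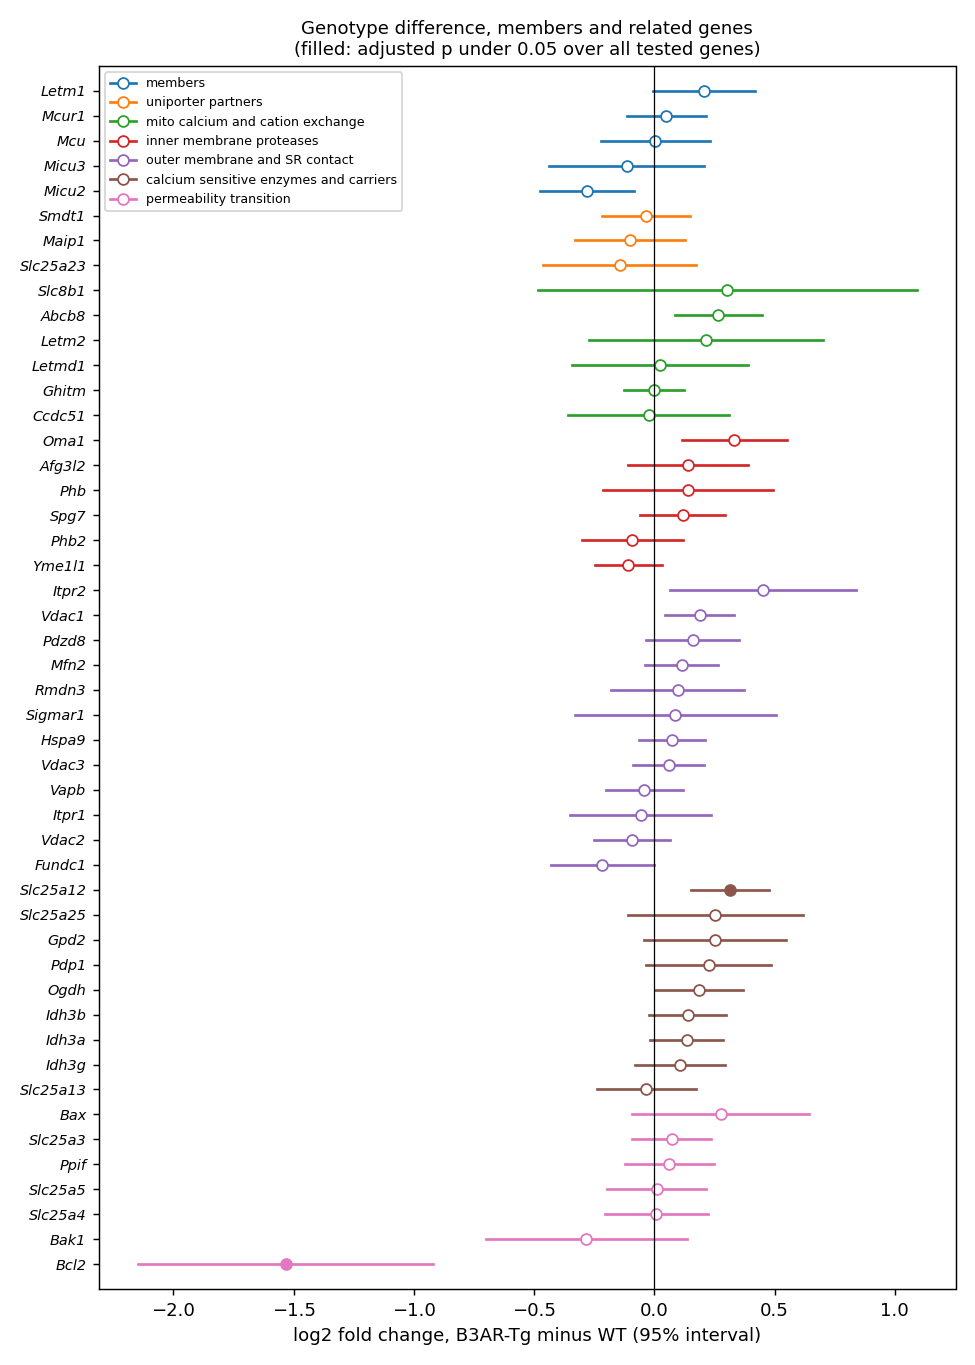
Points give the log2 fold change of B3AR-Tg minus WT for the 5 tested members (top) and the related genes shown, coloured by list, with lines for the 95% interval. Filled points had an edgeR adjusted p under 0.05 over all tested genes; these were Slc25a12 (0.32) and Bcl2 (-1.53), and no member is filled.

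The load itself is not among the values used here, so the members were set beside the level of load-responsive transcripts, called the load marker level, the mean centred log2 CPM of Nppa, Nppb, Myh7, Acta1, Ankrd1 and Xirp2. The WT animals fell into 2 sets, 5 at 0.03 to 0.81 and 3 (replicates 8, 4 and 2) at 1.58 to 1.88, with a gap of 0.77. A correlation over WT animals therefore rests on 2 sets rather than on a graded series. For Micu2 in WT, Pearson r was 0.83 (exact permutation p = 0.0147, adjusted p = 0.147), which did not pass. Spearman rho was 0.86 (exact permutation p = 0.0107, adjusted p = 0.107). Without the 2 animals farthest from the median load level, replicates 2 and 4, r was 0.74 (exact permutation p = 0.0847, adjusted p = 0.282). The 3 WT animals of the upper set also held the 3 highest Micu2 levels, 95.7, 111.6 and 91.2 CPM, against 67.7 to 87.7 CPM in the other 5. Their Mcu levels were 11.7, 11.1 and 11.7 CPM, within the range of the other 5. The same 3 libraries had the highest total counts in WT (9951739 to 11584656, against at most 9094181), and the part of depth in their Micu2 level was not tested.

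In B3AR-Tg no relation with the load marker level passed. Replicate 7 stood apart with a load marker level of 0.28, the others being at -1.66 to -0.53. Mcur1 had Pearson r = 0.74 (exact permutation p = 0.0358, adjusted p = 0.179) and Spearman rho = 0.76 (exact permutation p = 0.0368, adjusted p = 0.123). Without the 2 animals farthest from the median load level r was 0.78 over 6 animals (exact permutation p = 0.0722). Mcu had Pearson r = 0.67 (exact permutation p = 0.0611, adjusted p = 0.204) and Spearman rho = 0.79 (exact permutation p = 0.0279, adjusted p = 0.123), and r = 0.81 without those 2 animals (exact permutation p = 0.0625). Micu2 in B3AR-Tg had Pearson r = 0.27 (exact permutation p = 0.530, adjusted p = 0.806). Adjustment was over the 10 relations computed in both genotypes, of which 0 passed. Against the fibroblast and endothelial marker level 0 of 10 relations passed, and 0 of 20 passed between members (lowest exact permutation adjusted p = 0.670 and 0.608).

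**Figure D4:**
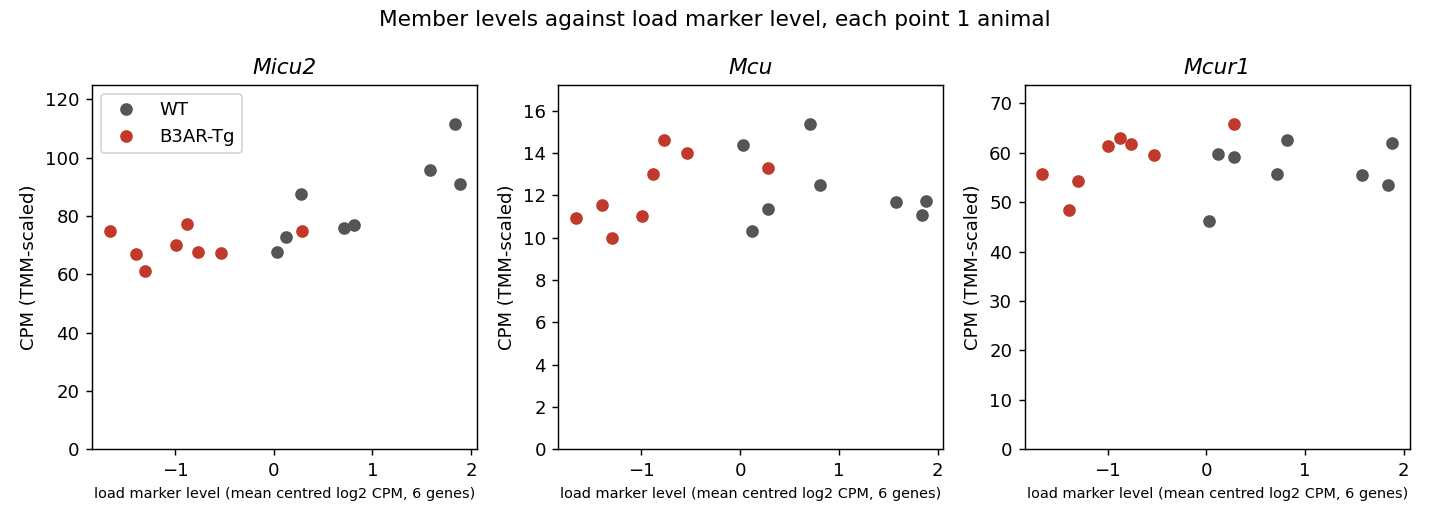
Each point is 1 animal (WT grey, B3AR-Tg red), with the load marker level on the horizontal axis as mean centred log2 CPM of 6 genes and TMM-scaled CPM on the vertical axis, from 0. The 3 WT animals at 1.58 to 1.88 hold the 3 highest Micu2 levels, at 91.2 to 111.6 CPM, while their Mcu and Mcur1 levels lie among those of the other animals.

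For each member the tested genes with the most similar course over the 16 animals were found after centring on the genotype means, among 10944 candidates. They are a description, since the highest values of so many coefficients are large without any relation, and all genes of a library share its depth. Micu2 had the closest matches, with Pearson r = 0.91 for Usp47, 0.91 for Slc30a4 and 0.89 for Kat2b. Mcur1 was followed by Tmem117 (0.88), Arpc5l (0.86) and Acta1 (0.85), the last of which is in the load list. Letm1 was followed by Snrpb (0.87), Dap (0.84) and Eif1b (0.84), and Mcu by Rsl24d1 (0.83), Slc35e1 (0.80) and Tmem250-ps (0.79). The values for Micu3, with its low counts, were 0.83 for Cd84, 0.81 for Oxsm and 0.78 for Dand5. No gene was listed for more than 1 member.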

How the data were processed

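The deposited values are raw gene counts in whole numbers, 1 column per animal. Salmon and the build GRCm39 are named per the submitters' processing notes, while the annotation and the way estimates became whole numbers are not given in the sources used here. Per the labels' protocols, 500 ng of ribosome-depleted RNA entered stranded total RNA libraries.

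From these counts, genes were tested with edgeR 4.0.16 (R 4.3.3; filterByExpr with minimum count 10 and minimum total 15, TMM, genotype only, Benjamini-Hochberg over all tested genes, threshold 0.05). The log2 CPM values used a prior count of 2. Ratios and relations were tested by exact permutation (all 12870 splits, or all pairings). Alternatives used DESeq2 1.42.0 and limma 3.58.1, other scalings, filters and covariates, a replicate block, and removal of each animal. Thinning, and the relations between members, were added after seeing the data. Simulated data were used to test the code. Of 200 genes given a log2 change of 0.25 in size, 0% passed the edgeR test. At 0.5 the share was 33% and at 1 it was 83.5%. A member with a change near 0.25 would therefore seldom pass, and not passing does not show that a member was unchanged.

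The 6 members and all lists were chosen with earlier results of these data known. Named genes were the members, list genes past the threshold, Smdt1, Slc8b1, Vdac1, Ppif, the markers Nppa, Myh6, Pdgfra, Pecam1 and Ptprc, and the 3 genes most like each member; 1 further gene of the rule is not reported here. Of the markers, Pdgfra (fibroblast) and Pecam1 (endothelial) had log2 fold changes of -0.82 and -0.73 (edgeR adjusted p = 0.168 and 0.0132). Transcript lengths came from GENCODE M21, which is on GRCm38, matched by gene ID for 6 of 6 members, and no coordinates are printed because the builds differ. BLAST 2.17.0 found no other gene at 90% identity over 100 bases for 5 members, and for Micu3 an overlapping gene, Fgf20, with 0 counts.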

Additional observations from a re-analysis of the deposited data

Results flagged for a closer look

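Slc8b1, the mitochondrial sodium-calcium exchanger gene, was low in B3AR-Tg replicate 5, where it measured 0.0918 CPM; the remaining B3AR-Tg animals had 0.940 to 1.63 CPM. The gap to the nearest animal took 0.767 of the group's range on the scale log2(CPM + 0.1), above Dixon's 95% limit for 8 animals. The value rests on 1 count, under the floor of 3. The search covered 24 groups, in which chance, at about 1 in 20, would flag 1.2.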

How the results depend on the processing

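Of the 5 tested members, 0 passed under each alternative except 2: 1 passed without WT replicate 3 and 1 after thinning to the smallest library, in both cases Micu2. The signs of Micu2, Micu3 and Letm1 held in 28 of 28 alternatives, that of Mcur1 in 27 and that of Mcu, whose value is near 0, in 13. Over all tested genes 537 changed, against 230 with a replicate block and 5 with the non-myocyte marker covariate. Of the list genes 2 changed, against 4 with library size only, 4 with DESeq2, 1 with the replicate block and 0 with the covariate. The cause of these moves was not tested. Leaving out 1 animal at a time gave 272 (without WT replicate 4) to 675 genes (without WT replicate 3), with 277 without B3AR-Tg replicate 5 and 345 without B3AR-Tg replicate 8. It gave 0 to 1 members and 1 to 4 list genes (1 without WT replicate 4, 4 without WT replicate 6). The log2 ratio of Micu2 to Mcu then differed by -0.34 to -0.19 (exact permutation adjusted p = 0.0513 to 0.368) and that of Micu3 to Mcu by -0.19 to -0.04. Replicate numbers in the titles belong to different animals, and the labels state no pairing. Deviations of same-numbered animals correlated at -0.22 to 0.09, which cannot show whether such animals were handled together. With the block the Micu2 to Mcu difference was -0.27 (exact sign-flip permutation adjusted p = 0.0625). Depth limits Mcub, Slc8b1 and Micu3 most.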
